A study of Mus musculus with 4 samples.

Results

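The genes described here are 9 genes that mark reactive astrocytes, chosen by name from the 33981 genes in the count table: *Gfap*, *Vim*, *Lcn2*, *Serpina3n*, *Cd44*, *Osmr*, *S1pr3*, *Stat3* and *Aspg*. All 9 were found and all 9 passed the filter on low counts in every comparison. They were measured by RNA sequencing of prefrontal brain tissue from male C57BL/6J mice aged 3 to 5 months, in 24 libraries of 4 groups with 6 libraries each. Normotensive (NT) mice were infused with the saline vehicle for 28 days, and hypertensive (HT) mice with angiotensin II, the daily dose being 0.28 mg/kg. On day 7 of the infusion each mouse had a sham procedure (NT + Sham, HT + Sham) or a photothrombotic stroke of the prefrontal cortex (NT + Stroke, HT + Stroke), in which light closes vessels through a photosensitive dye, and all tissue was taken on day 28. Hypertension here is the response to an infused hormone, angiotensin II, which also acts on vessels, kidney and brain directly, so blood pressure and the hormone cannot be told apart.

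Astrocytes respond to injury by a set of changes called reactive astrogliosis: they enlarge, build up intermediate filaments and switch on genes for secreted proteins and receptors, and those nearest the lesion form the glial border of the scar. One well known route runs from cytokines of the interleukin-6 family, through receptors that share the subunit gp130, to the transcription factor STAT3, whose targets include *Gfap*. Although several of the 9 genes are used as astrocyte markers, *Vim*, *Cd44*, *Stat3* and *Lcn2* are also expressed by other cells, such as vessel cells, fibroblasts and blood-derived leukocytes. In bulk tissue, fewer cells of a type and less RNA per cell cannot be told apart.

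The promoters of the receptor gene and of the leading filament gene are shown because they were the only ones among the 9 members with a match to any of the 3 motifs searched, 2 for STAT factors and 1 for AP-1 factors. Each runs from 250 bases before to 50 bases after the RefSeq start on GRCm38.p6, 5′ to 3′ on the gene's own strand, and capitals mark the match.
Gfap, chr11:102897151-102897450, minus strand: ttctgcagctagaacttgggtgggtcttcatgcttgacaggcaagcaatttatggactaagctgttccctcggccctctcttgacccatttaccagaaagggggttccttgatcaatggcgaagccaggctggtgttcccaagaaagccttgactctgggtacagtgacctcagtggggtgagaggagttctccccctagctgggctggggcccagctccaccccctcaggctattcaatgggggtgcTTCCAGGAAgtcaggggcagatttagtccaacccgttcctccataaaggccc
Osmr, chr15:6874264-6874563, minus strand: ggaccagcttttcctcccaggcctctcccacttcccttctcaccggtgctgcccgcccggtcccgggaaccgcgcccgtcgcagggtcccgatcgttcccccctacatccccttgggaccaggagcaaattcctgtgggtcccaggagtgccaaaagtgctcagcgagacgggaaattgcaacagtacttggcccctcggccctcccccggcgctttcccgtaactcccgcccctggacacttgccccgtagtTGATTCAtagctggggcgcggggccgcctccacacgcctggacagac
The capitals in *Gfap* match both TTCNNNGAA, the general STAT motif, and its stricter form TTCCNGGAA, and their first base lies 2 bases before the start. The capitals in *Osmr* match TGANTCA, the motif of AP-1 factors, and begin 3 bases after the start. Both strands were searched in all 9 promoters, and each motif was found in 1 of them. Over 32851 mouse promoters of the same length, 8.3% held TTCNNNGAA, 1.15% held TTCCNGGAA and 7.81% held TGANTCA. A match is a description of the letters in this window only.

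Levels are given as CPM, read counts scaled to a common library size. Total counts ran from 15922919 to 24865998 over the 24 libraries. Some facts about the libraries bear on the results. No label says whether the 6 libraries of a group came from separate mice, so the *P* values measure the spread between libraries. The libraries are numbered 1 to 6 as in the tables, and 3 of them went against their group. HT + Sham library 6 was above every other sham library in 8 of the 9 members, all but *S1pr3*, and HT + Stroke libraries 1 and 6 were below every NT + Stroke library in all 9. The same was seen outside the members. Of 4356 other genes that differed between NT + Stroke and NT + Sham, HT + Sham library 6 was nearer the NT + Stroke mean in 76.6%, compared with 20.4% to 41.2% in the other HT + Sham libraries. HT + Stroke libraries 1 and 6 were nearer that mean in 26.6% and 34.9% of them, compared with 74.4% to 91.6% in the other 4 HT + Stroke libraries. Fold changes that rest on these 3 libraries are given with and without them. They were picked after their values were seen, so the values without them are descriptions.

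**Figure D1:**
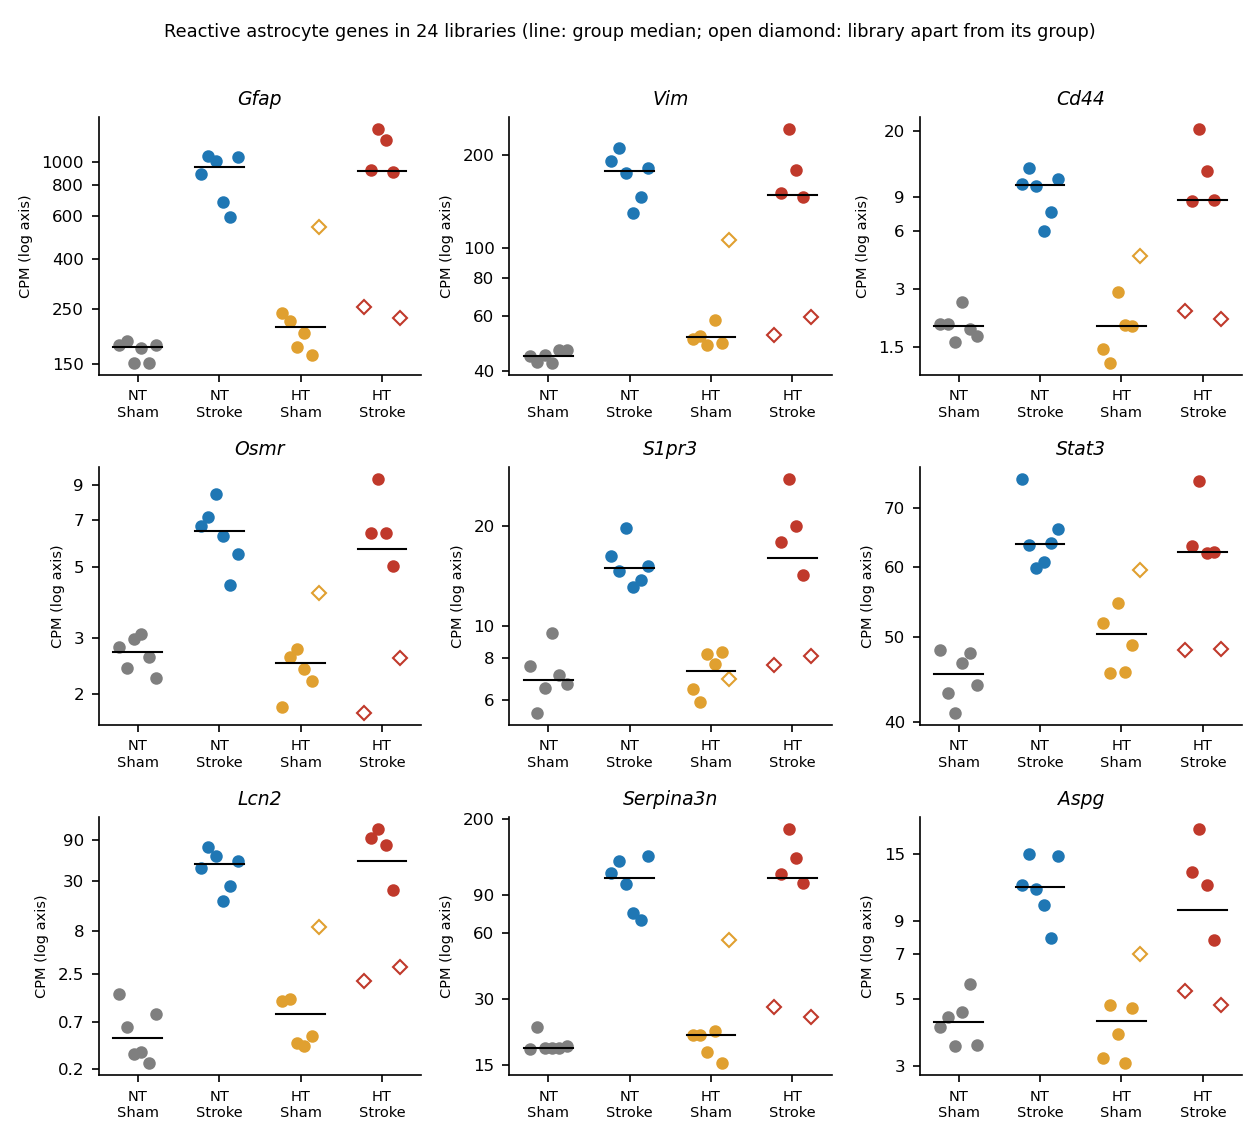
Normalised read counts of the 9 genes as CPM (log axis), with 1 panel per gene and 1 point per library for the 4 groups of 6; lines mark medians and open diamonds mark HT + Sham library 6 and HT + Stroke libraries 1 and 6. The NT + Stroke points lie above all NT + Sham points in each panel, while HT + Sham library 6 lies above the rest of its group in 8 panels and HT + Stroke libraries 1 and 6 lie below theirs in all 9.

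Compared per length, in fragments scaled by transcript length and by the mapped fragments of the library (FPKM), *Gfap* was the most abundant member in every group, with 39.7 ± 3.66 FPKM (mean ± SD, *n* = 6) in NT + Sham and 216 ± 47.6 in NT + Stroke. It made up 56.7% to 67.5% of the summed FPKM of the 9 genes in each of the 24 libraries. In NT + Sham the order below it was *Vim* (9.29 ± 0.421), *Serpina3n* (8.97 ± 0.859), *Stat3* (4.69 ± 0.355), *S1pr3* (1.58 ± 0.3204) and *Aspg* (1.198 ± 0.232). *Cd44* (0.286 ± 0.0531), *Lcn2* (0.237 ± 0.178) and *Osmr* (0.2199 ± 0.0266) came last, and the ranges of these 3 overlapped, as did those of *Vim* and *Serpina3n* and those of *S1pr3* and *Aspg*. In NT + Stroke *Lcn2* moved up from rank 8 to rank 4, at 17.6 ± 8.04 FPKM. It then lay between *Vim* (37.6 ± 6.46) and *Stat3* (7.07 ± 0.6803) and overlapped both. *Serpina3n* (52.1 ± 13.9) stood at rank 2, and its range overlapped that of *Vim*. *S1pr3* (3.58 ± 0.536) and *Aspg* (3.48 ± 0.782) overlapped each other, above *Cd44* (1.49 ± 0.379) and *Osmr* (0.548 ± 0.116), which did not overlap.

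The first comparison asks what stroke did to these genes in normotensive mice. All 9 rose in NT + Stroke compared with NT + Sham, where 14.4% of the 16835 genes tested were higher and 11.5% lower. Fold changes ran from 1.45-fold in *Stat3*, the transcription factor, to 70.6-fold in *Lcn2*, a secreted lipocalin. Every NT + Stroke library was above every NT + Sham library in all 9 genes, which held for 7.47% of all genes tested. The median log2 fold change of the 9 was 1.97, compared with -0.011 over all genes. All 9 stayed called under every alternative processing tried. With limma on log2(FPKM + 1), where the added 1 shrinks the changes of low genes, the log2 changes were smaller by over 1.5 times in *Lcn2* (3.79), *Cd44* (0.94) and *Osmr* (0.34).

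The second comparison asks the same in hypertensive mice. With all 12 libraries none of the 9 genes passed the test in HT + Stroke compared with HT + Sham, where 0.544% of 16741 genes were called higher. Their log2 fold changes were all above 0, from 0.25 in *Stat3* to 4.62 in *Lcn2*, with adjusted *P* values of 0.0779 in *S1pr3* to 0.258 in *Stat3* (edgeR). All 9 had an unadjusted *P* under 0.05, as did 2842 of the 16741 genes tested. In each member 4 of the 6 HT + Stroke libraries were above every HT + Sham library, and the other 2 were HT + Stroke libraries 1 and 6. How many of all genes showed this was not counted. Without HT + Stroke libraries 1 and 6 and HT + Sham library 6, all 9 were called higher, and so were 6.81% of all genes tested. Without HT + Stroke library 1 alone, 5 members were called (*Lcn2*, *Cd44*, *Osmr*, *S1pr3* and *Aspg*), and 451 of 16901 genes were called higher. Without HT + Stroke library 6 alone, 2 members were called (*S1pr3* and *Aspg*), and 266 of 16916 genes were called higher. Without any other single library no member was called. The call also rested on the test. DESeq2 on the same 12 libraries called 7 members, all but *Osmr* (adjusted *P* = 0.0538) and *Stat3* (0.259), and 689 of 18594 genes higher. A fit of edgeR over all 4 groups called 8 members, all but *Stat3* (0.122), and 839 of 17608 genes higher.

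**Figure D2:**
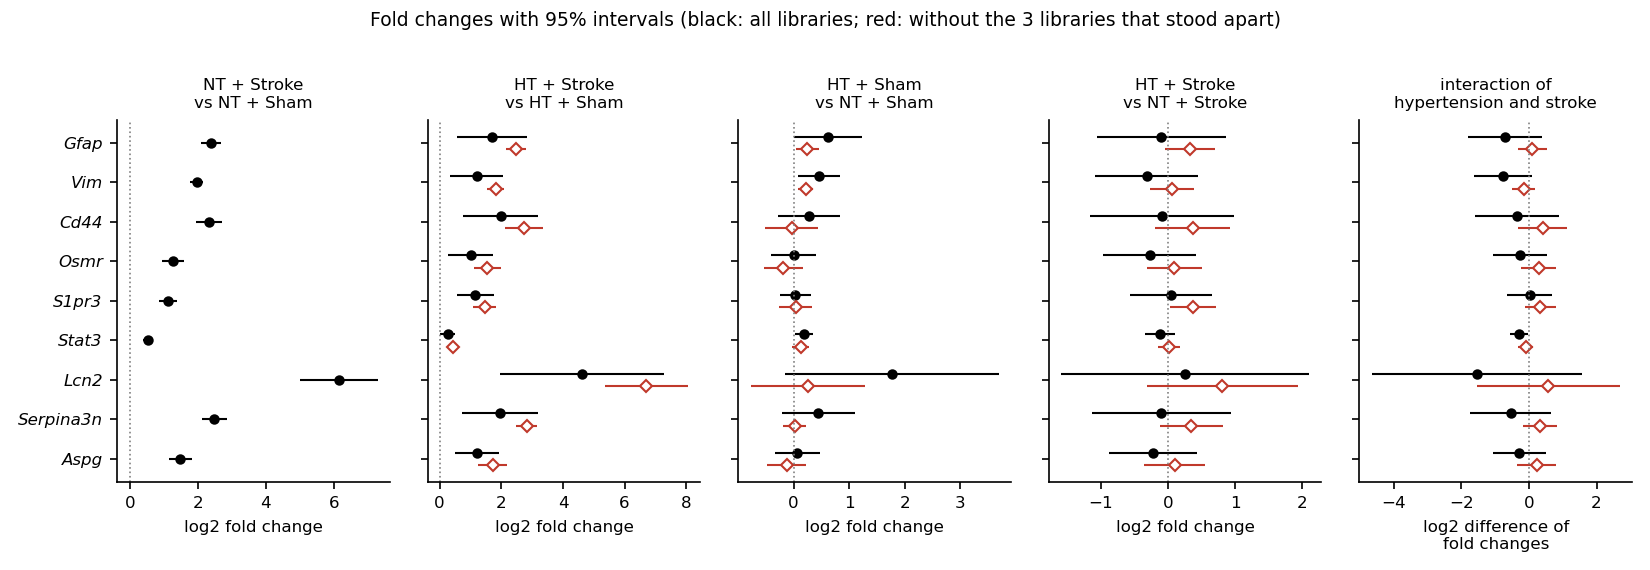
Log2 fold changes of the 9 genes with 95% confidence intervals in 5 comparisons, 1 per panel; black points are from all libraries and red points are from the fit without HT + Sham library 6 and HT + Stroke libraries 1 and 6. The intervals of NT + Stroke against NT + Sham lie above 0 for all 9 genes, those of HT + Stroke against HT + Sham are narrower without the 3 libraries than with all, and those of the interaction include 0 except for *Stat3* with all libraries.

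*Osmr* (ENSMUSG00000022146, chromosome 15, 6813577 to 6874969 on the minus strand, on GRCm38) codes for the receptor subunit that binds oncostatin M together with gp130. *Osmr* ran from 2.25 to 3.099 CPM (median 2.71) in NT + Sham and from 4.41 to 8.44 CPM (median 6.47) in NT + Stroke, with no overlap. *Osmr* thus rose 2.4001-fold after stroke (log2 fold change 1.26, SE 0.154, adjusted *P* = 1.02e-05, edgeR's quasi-likelihood test, Benjamini-Hochberg adjusted). The gap between the highest NT + Sham and the lowest NT + Stroke library was narrow. *Osmr* ran from 1.83 to 4.15 CPM (median 2.504) in HT + Sham and from 1.75 to 9.42 CPM (median 5.71) in HT + Stroke. HT + Stroke library 1, at 1.75 CPM, was below every HT + Sham library, and library 6, at 2.61 CPM, lay within their range. *Osmr* had a log2 fold change of 1.01 between the HT groups (95% interval 0.27 to 1.74, adjusted *P* = 0.154), which was 1.55 (1.12 to 1.98) without the 3 libraries.

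Of the other genes of this pathway, 4 of 8 gp130 receptors and kinases rose in NT + Stroke compared with NT + Sham and 1 fell, with a median log2 fold change of 0.21. *Il6ra*, the interleukin-6 receptor, rose by 0.91 on the log2 scale (adjusted *P* = 0.000262). *Il6st*, which codes for gp130 itself, rose by 0.53 (8.58e-05). The kinase genes *Tyk2* and *Jak1* went in opposite directions, by 0.29 (0.0197) and -0.17 (0.0322). Of the 9 cytokine genes of the family, 5 were below the filter on low counts, including *Osm*, *Il6* and *Il11*, and 1 of the 4 tested rose, *Clcf1* by 0.95 (0.000618). The gene of the receptor's own ligand, *Osm*, thus gave too few reads here to be compared. In HT + Stroke compared with HT + Sham no gene of either list was called, and 1 of each was without the 3 libraries.

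*Stat3* (ENSMUSG00000004040, chromosome 11, 100885098 to 100939540 on the minus strand) codes for the transcription factor at the end of this route, which is activated by phosphorylation and also raises its own transcription. *Stat3* ran from 40.96 to 48.4 CPM (median 45.4) in NT + Sham and from 59.9 to 75.5 CPM (median 63.7) in NT + Stroke, with no overlap. *Stat3* thus rose 1.45-fold after stroke (log2 fold change 0.54, SE 0.0661, adjusted *P* = 1.03e-05, edgeR). It was the smallest change among the 9, with libraries of each group close together. *Stat3* ran from 45.5 to 59.5 CPM (median 50.4) in HT + Sham and from 48.3 to 75.1 CPM (median 62.4) in HT + Stroke. In this gene HT + Sham library 6, at 59.5 CPM, was above HT + Stroke libraries 1 and 6, at 48.3 and 48.4 CPM. *Stat3* had a log2 fold change of 0.25 between the HT groups (95% interval 0.019 to 0.49, adjusted *P* = 0.258), which was 0.44 (0.25 to 0.63) without the 3 libraries. *Stat3* overlaps *Stat5a* on the opposite strand, which had 23 to 116 counts per library, and whether the counting used strand is not given in the sources used here.

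Among 10 other STAT factors and feedback genes, 7 rose in NT + Stroke compared with NT + Sham and none fell, with a median log2 fold change of 0.50. *Socs3*, the feedback inhibitor that STAT3 induces, rose by 0.67 (adjusted *P* = 6.22e-05), and *Stat5a* rose by 0.90 (0.000668). *Ptpn6*, which codes for a phosphatase best known from blood cells and microglia, rose by 1.48 (4.67e-06). None of the 10 was called between the HT groups with all libraries, and 5 were higher without the 3.

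*Gfap* (ENSMUSG00000020932, chromosome 11, 102887336 to 102900912 on the minus strand) codes for the main intermediate filament protein of astrocytes. *Gfap* ran from 151 to 185 CPM (median 176) in NT + Sham and from 592 to 1053 CPM (median 950.2) in NT + Stroke, with no overlap. *Gfap* thus rose 5.25-fold after stroke (log2 fold change 2.39, SE 0.138, adjusted *P* = 8.86e-08, edgeR). The lowest NT + Stroke library was well above the highest NT + Sham library. *Gfap* ran from 163 to 542 CPM (median 212) in HT + Sham and from 229.8 to 1360.1 CPM (median 915) in HT + Stroke. HT + Sham library 6, at 542 CPM, was far above the median of its group, and HT + Stroke libraries 1 and 6 lay at 255 and 229.8 CPM, below it and far below the other 4. *Gfap* had a log2 fold change of 1.69 between the HT groups (95% interval 0.55 to 2.82, adjusted *P* = 0.135), which was 2.49 (2.16 to 2.81) without the 3 libraries. The antisense gene Gm26668 had only 22 to 58 counts per library.

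*Vim* (ENSMUSG00000026728, chromosome 2, 13573927 to 13582826 on the plus strand) codes for vimentin, the filament protein that reactive astrocytes share with vessel cells and fibroblasts. *Vim* ran from 42.3 to 46.5 CPM (median 44.6) in NT + Sham and from 129.6 to 211 CPM (median 177) in NT + Stroke, with no overlap. *Vim* thus rose 3.91-fold after stroke (log2 fold change 1.97, SE 0.0946, adjusted *P* = 9.52e-10, edgeR). *Vim* had rank 2 by *P* value of the 16835 genes tested. *Vim* ran from 48.5 to 106 CPM (median 51.3) in HT + Sham and from 52.2 to 242 CPM (median 148) in HT + Stroke. HT + Stroke libraries 1 and 6, at 52.2 and 59.8 CPM, were below HT + Sham library 6, at 106 CPM. *Vim* had a log2 fold change of 1.21 between the HT groups (95% interval 0.35 to 2.07, adjusted *P* = 0.151), which was 1.82 (1.53 to 2.10) without the 3 libraries.

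Of the other 10 intermediate filament genes, 1 rose in NT + Stroke compared with NT + Sham, 3 fell and 6 did not pass the test, with a median log2 fold change of -0.19. *Nes*, which codes for nestin of progenitors and reactive astrocytes, rose by 0.38 (adjusted *P* = 0.0145). The neuronal filament genes *Nefl* and *Ina* both fell, with log2 fold changes of -0.36 (0.000294) and -0.27 (0.00075). None was called between the HT groups with all libraries.

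*Cd44* (ENSMUSG00000005087, chromosome 2, 102811141 to 102901665 on the minus strand) codes for the surface receptor of hyaluronan and osteopontin, present on reactive astrocytes and on leukocytes. *Cd44* ran from 1.61 to 2.57 CPM (median 1.93) in NT + Sham and from 5.996 to 12.7 CPM (median 10.5) in NT + Stroke, with no overlap. *Cd44* thus rose 4.9997-fold after stroke (log2 fold change 2.32, SE 0.182, adjusted *P* = 1.32e-07, edgeR). *Cd44* ran from 1.24 to 4.495 CPM (median 1.95) in HT + Sham and from 2.097 to 20.4 CPM (median 8.68) in HT + Stroke. HT + Stroke library 1, at 2.33 CPM, and library 6, at 2.097 CPM, lay below HT + Sham library 6, at 4.495 CPM. *Cd44* had a log2 fold change of 1.97 between the HT groups (95% interval 0.74 to 3.21, adjusted *P* = 0.114), which was 2.73 (2.12 to 3.35) without the 3 libraries. Of 8 CD44 ligands and hyaluronan enzymes tested, 2 rose in NT + Stroke compared with NT + Sham, the osteopontin gene *Spp1* by 3.20 (adjusted *P* = 5.31e-07) and the hyaluronidase gene *Hyal1* by 0.67 (0.00727). *Spp1* stood at 11.4 ± 1.81 CPM in NT + Sham and 104 ± 27.6 CPM in NT + Stroke, while the median log2 fold change of the list was 0.15.

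*S1pr3* (ENSMUSG00000067586, chromosome 13, 51408639 to 51422797 on the plus strand) codes for a receptor of the lipid sphingosine 1-phosphate. *S1pr3* ran from 5.46 to 9.51 CPM (median 6.89) in NT + Sham and from 13.1 to 19.7 CPM (median 14.9) in NT + Stroke, with no overlap. *S1pr3* thus rose 2.18-fold after stroke (log2 fold change 1.12, SE 0.129, adjusted *P* = 5.55e-06, edgeR). *S1pr3* ran from 5.91 to 8.36 CPM (median 7.298) in HT + Sham and from 7.63 to 27.6 CPM (median 16.03) in HT + Stroke. HT + Sham library 6, at 6.92 CPM, was not above the other sham libraries in this gene, while HT + Stroke libraries 1 and 6, at 7.63 and 8.13 CPM, were the lowest of their group and lay within the HT + Sham range. *S1pr3* had a log2 fold change of 1.16 between the HT groups (95% interval 0.55 to 1.77, adjusted *P* = 0.0779), which was 1.47 (1.09 to 1.84) without the 3 libraries. Of 10 other sphingosine 1-phosphate genes, 3 rose in NT + Stroke compared with NT + Sham and 1 fell, with a median of 0.085. *S1pr2*, another receptor, rose by 1.03 (adjusted *P* = 2.39e-05), the kinase gene *Sphk1* by 0.96 (0.000393) and the lyase gene *Sgpl1* by 0.59 (9.3e-05). The gene of the exporter, *Spns2*, fell, with -0.21 (0.0193). The antisense gene Gm32834 at the *S1pr3* locus had 6 to 26 counts per library.

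*Lcn2* (ENSMUSG00000026822, chromosome 2, 32384633 to 32388252 on the minus strand) codes for lipocalin-2, a secreted protein that binds bacterial siderophores and is also a granule protein of neutrophils. *Lcn2* ran from 0.233 to 1.48 CPM (median 0.461) in NT + Sham and from 17.6 to 73.6 CPM (median 46.7) in NT + Stroke, with no overlap. *Lcn2* thus rose 70.6-fold after stroke (log2 fold change 6.14, SE 0.514, adjusted *P* = 1.11e-05, edgeR). The change was the largest of the 9, from a level of at most 1.48 CPM in sham tissue of normotensive mice. *Lcn2* ran from 0.369 to 8.69 CPM (median 0.861) in HT + Sham and from 2.096 to 119 CPM (median 50.5) in HT + Stroke. HT + Sham library 6, at 8.69 CPM, was above HT + Stroke libraries 1 and 6, at 2.096 and 3.05 CPM. *Lcn2* had a log2 fold change of 4.62 between the HT groups (95% interval 1.97 to 7.27, adjusted *P* = 0.099), which was 6.71 (5.36 to 8.06) without the 3 libraries. Of 8 neutrophil genes 6 were below the filter on low counts, and the other 2 rose in NT + Stroke compared with NT + Sham. *Ly6g* was at 0 in all 6 HT + Sham libraries. The summed level of the 8 ran from 1.02 to 2.94 CPM in NT + Sham and from 2.94 to 57.8 CPM in NT + Stroke. The NT + Stroke median was 4.36 CPM, with 24.6 and 57.8 CPM in libraries 1 and 5. NT + Stroke library 2, with the highest *Lcn2* of its group, had a neutrophil sum of 4.89 CPM, above every NT + Sham library. The part of neutrophils in the level of *Lcn2* was not tested. Of the lipocalin-2 receptors only *Slc22a17* was tested, and it was not called (log2 fold change -0.12).

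*Serpina3n* (ENSMUSG00000021091, chromosome 12, 104406729 to 104414329 on the plus strand) codes for a secreted serine protease inhibitor. *Serpina3n* ran from 17.8 to 22.4 CPM (median 17.96) in NT + Sham and from 69.3 to 136 CPM (median 107) in NT + Stroke, with no overlap. *Serpina3n* thus rose 5.61-fold after stroke (log2 fold change 2.49, SE 0.168, adjusted *P* = 7.19e-07, edgeR). NT + Sham library 2, at 22.4 CPM, lay apart from the other 5 of its group. *Serpina3n* ran from 15.3 to 55.9 CPM (median 20.6) in HT + Sham and from 24.97 to 179.9 CPM (median 107) in HT + Stroke. As in *Lcn2*, HT + Sham library 6, at 55.9 CPM, was above HT + Stroke libraries 1 and 6, at 27.7 and 24.97 CPM. *Serpina3n* had a log2 fold change of 1.96 between the HT groups (95% interval 0.73 to 3.19, adjusted *P* = 0.118), which was 2.82 (2.49 to 3.15) without the 3 libraries. *Serpina3n* belongs to a cluster of close paralogs, and how reads with several matches were counted is not given in the sources used here. None of the paralogs passed the filter on low counts in the comparisons of stroke with sham (*Serpina3g* did in HT + Stroke compared with NT + Stroke and in the fit of all 24 libraries, and was called in neither), and their sum stayed at or below 2.44 CPM in every library.

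*Aspg* (ENSMUSG00000037686, chromosome 12, 112106679 to 112127559 on the plus strand) codes for an asparaginase. *Aspg* ran from 3.51 to 5.599 CPM (median 4.196) in NT + Sham and from 7.93 to 14.97 CPM (median 11.6) in NT + Stroke, with no overlap. *Aspg* thus rose 2.804-fold after stroke (log2 fold change 1.49, SE 0.158, adjusted *P* = 2.77e-06, edgeR). *Aspg* ran from 3.07 to 7.01 CPM (median 4.24) in HT + Sham and from 4.77 to 18.1 CPM (median 9.81) in HT + Stroke. HT + Stroke libraries 1 and 6, at 5.299 and 4.77 CPM, were the lowest of their group and lay below HT + Sham library 6, at 7.01 CPM. *Aspg* had a log2 fold change of 1.22 between the HT groups (95% interval 0.51 to 1.92, adjusted *P* = 0.0936), which was 1.72 (1.25 to 2.19) without the 3 libraries.

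**Figure D3:**
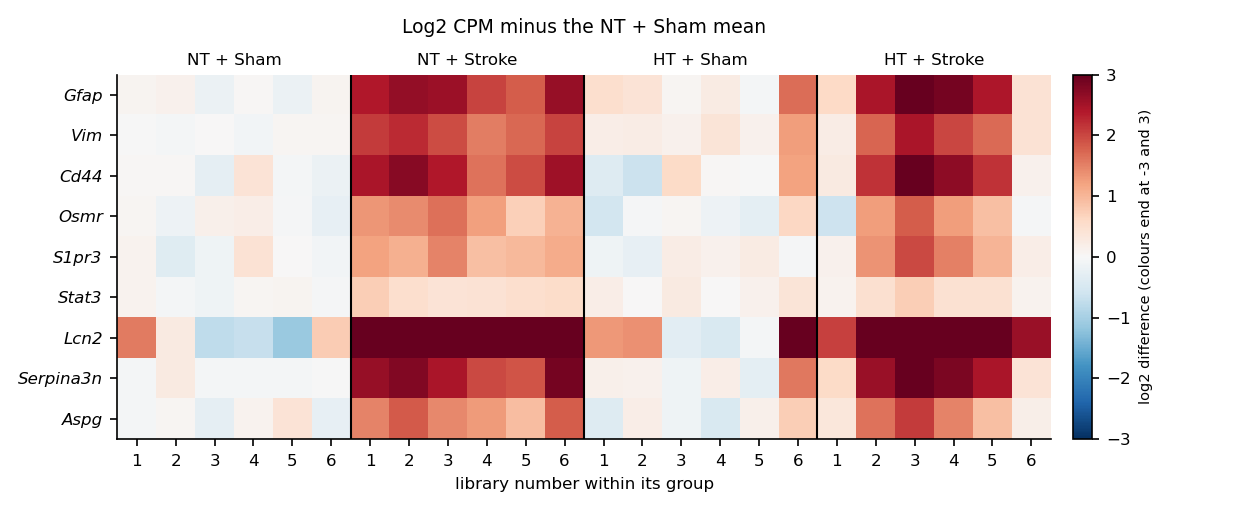
Log2 CPM of the 9 genes (down) in the 24 libraries (across, by group) minus the NT + Sham mean of the gene, with colours ending at -3 and 3. The 6 NT + Stroke columns are raised in all 9 genes, the HT + Sham column of library 6 is raised in most, and the HT + Stroke columns of libraries 1 and 6 are paler than the other 4 of their group in all 9 genes.

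The third comparison asks what angiotensin II did without a stroke. None of the 9 genes passed the test in HT + Sham compared with NT + Sham, and neither did any of the 16581 genes tested (0.0%), although 1332 had an unadjusted *P* under 0.05, and DESeq2 also called 0. Among the 9, *Gfap*, *Vim* and *Stat3* had an unadjusted *P* under 0.05. *Vim* was the 1 member of 9 whose groups did not overlap, as in 0.181% of all genes tested. All 6 HT + Sham libraries were above all 6 NT + Sham libraries, 48.5 to 106 CPM compared with 42.3 to 46.5 CPM, with a log2 fold change of 0.46 (95% interval 0.075 to 0.84, adjusted *P* = 0.532, edgeR). Without HT + Sham library 6 it was 0.21 (0.079 to 0.35). *Gfap* was at 0.62 (0.0047 to 1.23) and at 0.25 (0.035 to 0.46) without that library, and *Lcn2* at 1.76 (-0.16 to 3.69) and 0.26 (-0.77 to 1.28). *Serpina3n* was at 0.44 (-0.22 to 1.11) and 0.021 (-0.19 to 0.23), and *Stat3* at 0.18 (0.018 to 0.35) and 0.13 (-0.027 to 0.28), and with all libraries neither passed the test (adjusted *P* = 0.785 and 0.577, edgeR). *Cd44*, *Osmr*, *S1pr3* and *Aspg* had values of 0.28, -0.0015, 0.0305 and 0.068, and the sign of each of these 4 depended on the libraries or the scaling used. The upper ends of the 9 intervals lay between 0.31 in *S1pr3* and 3.69 in *Lcn2*, so differences up to those sizes are still within the intervals.

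The fourth comparison asks what angiotensin II did after a stroke. None of the 9 genes passed the test in HT + Stroke compared with NT + Stroke. Of all 17008 genes tested 0.0% passed, 1230 had an unadjusted *P* under 0.05, and DESeq2 called 0. No member had an unadjusted *P* under 0.05. All members overlapped between the groups, with HT + Stroke the more spread out: *Gfap* ran from 229.8 to 1360.1 CPM (median 915) in HT + Stroke and from 592 to 1053 CPM (median 950.2) in NT + Stroke. Its log2 difference was -0.10 (-1.06 to 0.86) with all libraries and 0.33 (-0.036 to 0.71) without HT + Stroke libraries 1 and 6. *Lcn2* was at 0.26 (-1.58 to 2.10) and 0.81 (-0.30 to 1.93), *Serpina3n* at -0.097 (-1.13 to 0.93) and 0.35 (-0.12 to 0.81), and *Cd44* at -0.086 (-1.15 to 0.98) and 0.37 (-0.18 to 0.92). *S1pr3* was at 0.051 (-0.56 to 0.66) and 0.37 (0.036 to 0.71). Without the 2 libraries the difference was above 0 in all 9 genes and was called in none (adjusted *P* = 0.854 to 0.954, edgeR). Of 17421 genes tested in that fit none was called. Those 2 libraries were below every NT + Stroke library in all 9 genes, so leaving them out raises each difference. The shared sign is therefore only a description.

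The interaction asks whether stroke changed a gene by a different amount in HT than in NT mice, in 1 fit over all 24 libraries. None of the 9 members passed, nor did any of 17608 genes (0.0%, with 1836 at an unadjusted *P* under 0.05), while DESeq2 called 22 genes, none of them a member. *Stat3* was the only member with an unadjusted *P* under 0.05 and an interval below 0, at -0.29 (95% interval -0.56 to -0.0199, adjusted *P* = 0.457, edgeR). Without the 3 libraries it was -0.098 (-0.32 to 0.12). The other 8 had intervals that held 0 with and without the 3 libraries, but the sign of 6 of them changed. The 3 were picked by their values, so this shift is only a description. *Lcn2* went from -1.53 (-4.65 to 1.58) to 0.57 (-1.54 to 2.68), *Gfap* from -0.71 (-1.82 to 0.39) to 0.094 (-0.33 to 0.52), *Serpina3n* from -0.53 (-1.73 to 0.66) to 0.33 (-0.17 to 0.83), and *Cd44*, *Osmr* and *Aspg* likewise from below to above 0. *Vim* was at -0.77 (-1.61 to 0.079) and -0.15 (-0.49 to 0.19), and *S1pr3* at 0.028 (-0.63 to 0.69) and 0.34 (-0.12 to 0.80). A member called in the NT mice and not in the HT mice was therefore not shown to differ between them.

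Against the NT + Sham libraries, which are also the controls of the first comparison, all 9 genes were called higher in HT + Stroke, where 8.38% of 16749 genes were. The adjusted *P* values ran from 0.0117 to 0.0447 with all libraries (edgeR). Without HT + Stroke libraries 1 and 6 they ran from 2.35e-08 to 0.000118 (edgeR), and 2086 of 17168 genes were called higher. Those 2 libraries were left out after their low values in these genes were seen. The smaller *P* values follow from that choice and are only a description. The log2 fold change of *Gfap* was 2.31 with all libraries and 2.74 without those 2, beside 2.39 in NT + Stroke. For *Vim* the values in the same order were 1.67, 2.04 and 1.97, for *Lcn2* 6.41, 6.97 and 6.14, for *Serpina3n* 2.41, 2.85 and 2.49, and for *Stat3* 0.44, 0.58 and 0.54. *Osmr*, at 1.01 (adjusted *P* = 0.0447), lost its call when any 1 of 10 of the 12 libraries was left out, all but HT + Stroke libraries 1 and 6. It also lost it under 5 of the 8 other alternatives tried, and *Cd44*, *S1pr3* and *Stat3* lost theirs under 1 each.

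How the members varied with each other was followed across the stroke libraries, where the level of *Gfap* differed most. The planned test was over all 12, where all 8 relations passed by r (permutation test). There r ran from 0.844 in *Stat3* (adjusted *P* = 0.003) to 0.992 in *Serpina3n* (8e-05). By rho *Stat3* did not pass (0.462, adjusted *P* = 0.13). HT + Stroke libraries 1 and 6 lay farthest from the median of *Gfap* and formed a cluster of their own, so the relations are also given without them. That choice followed the values of *Gfap*, so the results over the other 10 are descriptions. Over the other 10, *Serpina3n* followed *Gfap* most closely (r = 0.952, rho = 0.855, permutation *P* adjusted over 8 relations = 0.0008 and 0.0132). *Cd44* came next (r = 0.882, rho = 0.891, adjusted *P* = 0.00332 and 0.0104, permutation test). *Lcn2*, *Vim*, *S1pr3*, *Aspg* and *Osmr* had r between 0.683 and 0.818, with permutation *P* adjusted for r from 0.00907 to 0.032. *Stat3* did not follow it at this number of libraries (r = 0.329, rho = 0.0788, adjusted *P* = 0.36 and 0.84, permutation test). The raw permutation *P* of r was 0.0001 for *Serpina3n*, 0.00083 for *Cd44* and 0.36 for *Stat3*.

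Leaving out a further 2 libraries left 2 relations past the threshold by r (exact permutation test, *n* = 8). The libraries left out, NT + Stroke 4 and 5, were the farthest of the 10 from the median of *Gfap*. The relations left were again found after a choice by the values. The 2 relations were those of *Serpina3n* (r = 0.861, rho = 0.714) and *Cd44* (r = 0.888, rho = 0.8095). Each had an adjusted *P* of 0.0232 for r and 0.155 for rho (exact permutation test). *S1pr3* (r = 0.764, rho = 0.548), *Vim* (r = 0.702, rho = 0.548) and the other 4 did not pass at this number of libraries (adjusted *P* of r 0.0693 to 0.65, exact permutation test). Within the 6 NT + Stroke libraries alone, only *Aspg* reached the threshold by r (r = 0.923, rho = 0.943, adjusted *P* = 0.0336 and 0.066, exact permutation test), with the other 7 at 0.06 to 0.83, and the 4 remaining HT + Stroke libraries were too few for a value of their own. The 10 points hold libraries of 2 groups, and how much lesioned tissue each library held was not measured.

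**Figure D4:**
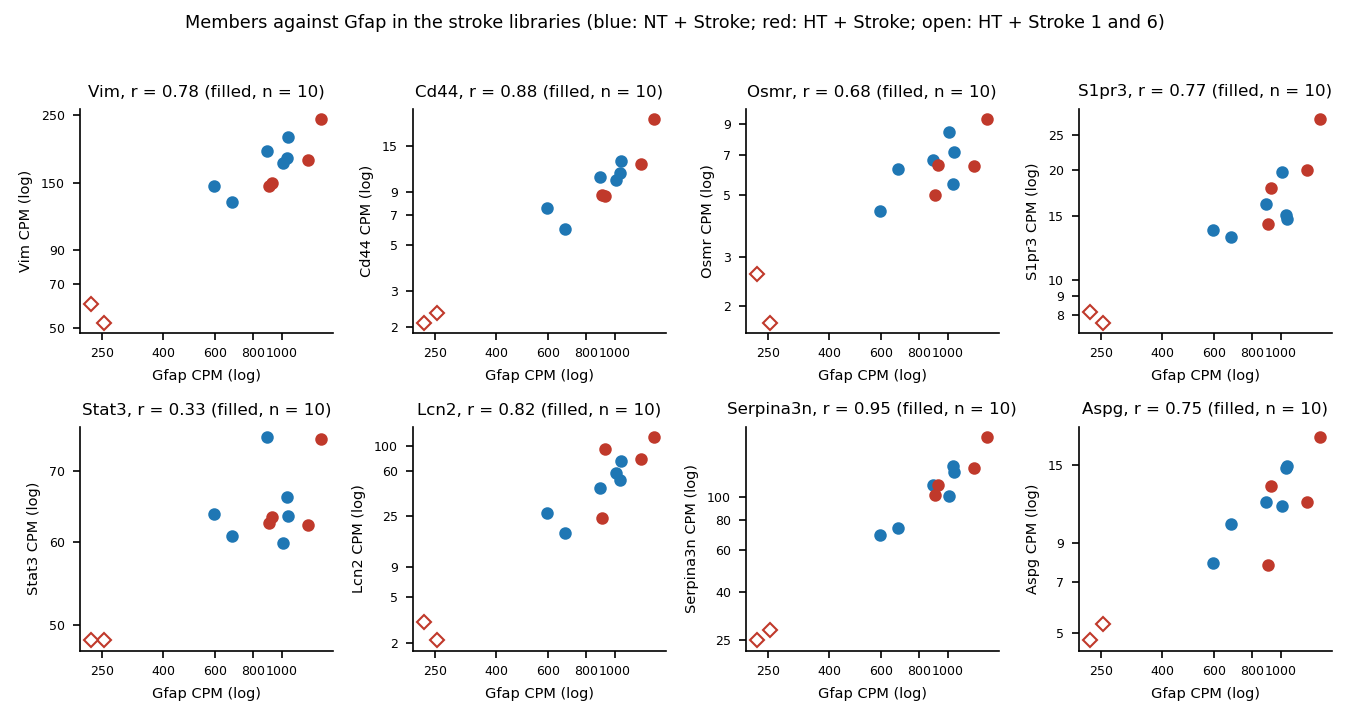
Level of each of the other 8 genes against *Gfap* in the 12 stroke libraries (CPM, log axes), with NT + Stroke in blue, HT + Stroke in red and HT + Stroke libraries 1 and 6 as open points. The open points lie at the lower left of every panel, and the r printed in each panel is over the 10 filled points, from 0.329 in *Stat3* to 0.952 in *Serpina3n*.

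The genes whose pattern was most like that of *Gfap* were ranked by r of log2 CPM after the group means were taken out, over the 12 stroke libraries and 14056 genes. The first 5 outside the members were *C4b*, a complement component, *A2m*, a protease inhibitor, *Fcrls*, a microglial receptor, *Cd48*, a leukocyte surface protein, and *Flnc*, an actin crosslinker. That ranking includes HT + Stroke libraries 1 and 6, so r is given over the other 10, where it was 0.9799, 0.924, 0.961, 0.886 and 0.846 in the same order. These values are a description, and each point is 1 library with its own depth and share of lesioned tissue.

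Other genes of reactive astrocytes gave the setting of the 9. Of 5 further genes raised in reactive astrocytes of several injuries, 4 rose in NT + Stroke compared with NT + Sham, with a median of 3.32. *Steap4*, a metalloreductase, rose by 4.71 (adjusted *P* = 3.82e-07), *Timp1*, an inhibitor of matrix metalloproteinases, by 3.67 (4.68e-06) and the chemokine gene *Cxcl10* by 3.32 (1.83e-07). *Steap4*, *Timp1* and *Cxcl10* were below the filter on low counts between the sham groups. They passed it here through the stroke libraries, so their rise and the median are only a description. Of 11 tested genes of the class called A1, first described after inflammation, 9 rose (median 1.39), among them the complement inhibitor *Serping1* (2.38), the GTPase *Gbp2* (1.62) and the class I antigen *H2-D1* (1.61). Of 11 tested genes of the class called A2, first described after ischaemia, 8 rose and 1 fell (median 0.96). The transglutaminase gene *Tgm1* (5.00), the pentraxin gene *Ptx3* (2.74) and *Cd109* (2.35) were among those that rose, and the one that fell was *Ptgs2* (-0.43), the inducible cyclooxygenase that neurons also express. *Tgm1* and *Ptx3* also were below the filter between the sham groups and passed it here through the stroke libraries. Genes of both classes thus rose in this comparison, and which cells expressed them was not measured. *Sphk1* and *Clcf1*, given above, belong to the A2 list as well.

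Between the HT groups with all libraries, 1 of the 5 (*Cxcl10*, adjusted *P* = 0.0327), 0 of 11 A1 genes and 2 of 11 A2 genes (*Cd109*, 0.0302, and *Tm4sf1*, 0.049) were called higher. Without the 3 libraries the counts were 4, 7 and 7.

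Genes that all astrocytes express had a smaller median change than the members. Of 15 astrocyte identity genes, 10 rose and none fell in NT + Stroke compared with NT + Sham, with a median log2 fold change of 0.21, compared with 1.97 for the members. *Aqp4*, the water channel of the endfeet, rose by 0.73 (adjusted *P* = 2.98e-06), the connexin gene *Gjb6* by 0.37 (0.0115) and the bicarbonate transporter gene *Slc4a4* by 0.37 (0.00977). The summed level of the 15 lay from 6017 to 6523 CPM in NT + Sham and from 6428 to 7084 CPM in NT + Stroke. *Gfap* as a share of that sum was 2.71% ± 0.206 (SD, *n* = 6) in NT + Sham, 12.9% ± 2.64 in NT + Stroke, 4.06% ± 2.10 in HT + Sham and 12.3% ± 6.93 in HT + Stroke. Without the 3 libraries it was 3.23% ± 0.553 (SD, *n* = 5) in HT + Sham and 16.5% ± 3.11 (SD, *n* = 4) in HT + Stroke. None of the 15 was called between the HT groups with all libraries, and 3 were higher without the 3.

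**Figure D5:**
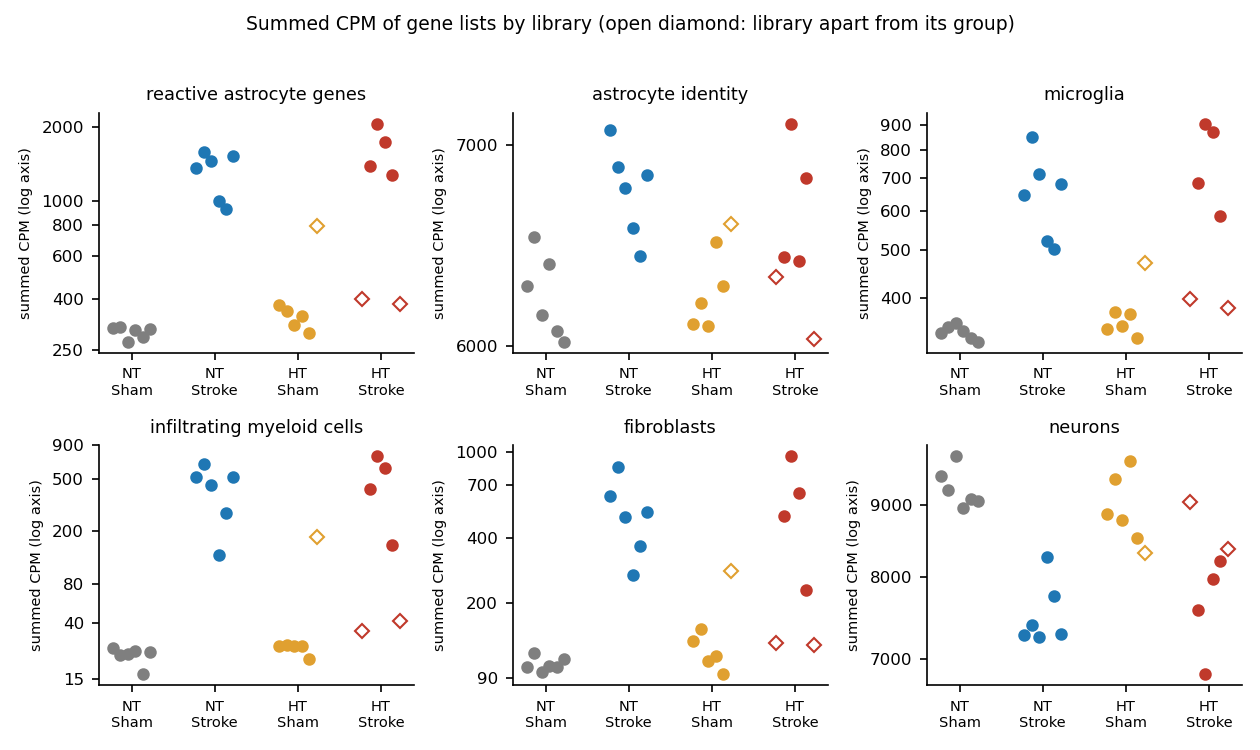
Summed CPM of the 9 genes and of 5 marker lists (astrocyte identity, microglia, infiltrating myeloid cells, fibroblasts, neurons) in each library, by group, on log axes that do not start at 0, with open diamonds for HT + Sham library 6 and HT + Stroke libraries 1 and 6. The sums of the members, of the myeloid cells and of the fibroblasts rise together in the stroke groups and in HT + Sham library 6, while the astrocyte identity sum stays between 6017 and 7116 CPM.

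Markers listed for myeloid cells, fibroblasts and microglia moved with the members. Of 8 genes listed for infiltrating myeloid cells 7 rose in NT + Stroke compared with NT + Sham (median 2.30), led by *Lyz2* (4.89) and *Ms4a7* (4.01). Whether their reads came from infiltrating or resident cells was not measured. The sum of the 8 ran from 16.5 to 26.05 CPM in NT + Sham and from 131 to 654 in NT + Stroke. It ran from 21.5 to 181 CPM in HT + Sham and from 35.2 to 746 in HT + Stroke. Of 8 fibroblast genes 7 rose (median 2.66), with *Col3a1* at 4.41 and *Col1a1* at 3.64, and their sum ran from 96.4 to 118 CPM in NT + Sham, from 269.7 to 852 in NT + Stroke, from 93.96 to 282 in HT + Sham and from 128 to 954 in HT + Stroke. Of 10 microglial genes 8 rose (median 0.70), among them *Trem2* (1.67) and *C1qa* (1.57), with sums from 325 to 354 CPM in NT + Sham, from 503 to 849.9 in NT + Stroke, from 331 to 470.1 in HT + Sham and from 380.4 to 905 in HT + Stroke. Library 6 held the top of the HT + Sham range in all 3 lists, at 181, 282 and 470.1 CPM. HT + Stroke libraries 1 and 6 were the lowest of their group in all 3, at 35.2 and 41.9 CPM for the myeloid genes, 131 and 128 CPM for the fibroblast genes and 397 and 380.4 CPM for the microglial genes. No gene of these 3 lists was at 0 in every library of a group. The part of these cells in the levels of *Vim*, *Cd44*, *Lcn2* and *Stat3* was not tested. The T cell and ependymal sums did not follow the members in the 3 libraries. In HT + Stroke libraries 1 and 6 the T cell sum was 23.3 and 25.9 CPM. The NT + Stroke range was 6.15 to 27.5 CPM. In HT + Sham library 6 it was 2.82 CPM, below every NT + Sham library. The ependymal sum was 31.7 and 34.6 CPM in HT + Stroke libraries 1 and 6. It was 18.4 CPM in HT + Sham library 6, and 12.4 to 26.5 CPM in NT + Sham.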

How the data were processed

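RNA was extracted from prefrontal brain tissue, and poly(A) libraries were sequenced on an Illumina HiSeq by the study's provider. Reads were mapped to the Ensembl mouse genome, and the aligner is not given in the sources used here. The positions in the files match GRCm38. The authors deposited raw counts per gene and FPKM values for 24 libraries, 6 per group, and the submitters' processing notes name featureCounts 1.5.0-p3 and DESeq2 1.20.0. Columns of 48 normalised counts and 8 group means, and columns with the authors' own comparisons (log2 fold changes and p-values), were not used. Total counts ran from 15922919 to 24865998 per library.

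The counts were tested with edgeR 4.0.16 (R 4.3.3): genes kept by filterByExpr (minimum count 10, minimum total 15), TMM scaling, robust quasi-likelihood fit, Benjamini-Hochberg adjustment over all genes tested, and a threshold of 0.05. Each comparison used the 12 libraries of its groups, and the interaction used all 24. CPM values are counts scaled to the TMM-adjusted library size. FPKM served to compare genes and, with limma, as an alternative test of the groups. Alternatives were other scalings, no filter, the library number as a block, DESeq2 1.42.0, limma 3.58.1 on log2(FPKM + 1) and log2(FPKM + 0.1), a joint fit of the 4 groups, and leaving out single libraries. Confidence intervals are 95%. Correlations with *Gfap* used log2 CPM (prior count 2), with exact permutation tests below 10 libraries and 100000 permutations otherwise. The fit was tested on simulated data. From each list the up to 3 largest and up to 2 smallest log2 fold changes called in NT + Stroke compared with NT + Sham could be named, and *Tm4sf1* and *Slc22a17* were named after their values were seen. Genes most like *Gfap* were the first 5 with a mean log2 CPM above 1. Promoters were taken from RefSeq, and all 9 members matched. The members, the lists and the tests were chosen with earlier results of these data known.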

Additional observations from a re-analysis of the deposited data

Results flagged for a closer look

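HT + Sham library 6 lay so far above the other 5 of its group, compared with the whole range of the group, that it passed Dixon's 95% limit in 4 members. It stood at 542 CPM for *Gfap*, 106 CPM for *Vim*, 8.69 CPM for *Lcn2* and 55.9 CPM for *Serpina3n*. By the same measure, NT + Sham library 2 lay apart for *Serpina3n*, at 22.4 CPM. The 36 sets of 6 values (9 genes in 4 groups) were all examined, and chance alone gives about 1 such value in 20 sets. HT + Stroke libraries 1 and 6 lay low together, so neither was apart from its nearest neighbour by this measure. No member differed between HT and NT mice in its response to stroke by the test of the interaction.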

How the results depend on the processing

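In NT + Stroke compared with NT + Sham all 9 members stayed higher and called in all 20 alternatives, with the log2 changes of *Lcn2*, *Cd44* and *Osmr* lowest, at 3.79, 0.94 and 0.34, with limma on log2(FPKM + 1). All called genes split into 2426 higher and 1939 lower, 2987 and 1021 without scaling beyond library size, and 2711 and 1216 with limma on log2(FPKM + 1). In HT + Stroke compared with HT + Sham, 108 genes were called. The count was 67 without scaling, 179 without a filter on low counts, 46 with the library number as a block, 907 with DESeq2, 68 with limma on log2(FPKM + 1), 1125 with all 4 groups in one fit, 1437 without the 3 libraries that stood apart (an alternative chosen after seeing the data), and 9 to 533 with 1 library left out. Members called were 0 with the design used, 7 with DESeq2, 8 with all 4 groups, 9 without the 3 libraries and 0 to 5 with 1 left out. In HT + Stroke compared with NT + Sham, 2470 genes were called, 770 with the block and 1357 to 2966 with 1 library left out. DESeq2 called 22 genes for the interaction. The cause of these shifts was not tested. Library numbers were not taken to pair the samples, since no label says that they do. Of 36 correlations of same-numbered libraries, 17 were over 0.1 (range -0.557 to 0.406). Libraries with different numbers were not correlated for reference, so these values cannot decide whether a number marks a pair or a batch.

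Signs that changed belonged to values that were called in neither fit. In HT + Sham compared with NT + Sham (log2 scale) these were *Osmr* at 0.018 without scaling, 0.011 with upper-quartile scaling, 9.44e-05 without a filter and 0.00079 with limma on log2(FPKM + 1), and without HT + Sham library 6 *Cd44* -0.038 and *Aspg* -0.13. In HT + Stroke compared with NT + Stroke they were, without HT + Stroke libraries 1 and 6, *Gfap* 0.33, *Vim* 0.0599, *Serpina3n* 0.35, *Cd44* 0.37, *Osmr* 0.094, *Stat3* 0.023 and *Aspg* 0.10, with the library number as a block *Lcn2* -0.41 and *S1pr3* -0.070, and with limma *Lcn2* -0.54 and *S1pr3* -0.038 (pseudocount 1) or *Lcn2* -0.79 and *S1pr3* -0.080 (0.1). For the interaction they were, without the 3 libraries, *Gfap* 0.094, *Lcn2* 0.57, *Serpina3n* 0.33, *Cd44* 0.41, *Osmr* 0.29 and *Aspg* 0.23, and *S1pr3* at -0.029 without scaling, -0.038 with the block and -0.073 or -0.14 with limma. With 1 library left out at a time the ranges were, in HT + Sham compared with NT + Sham, *Cd44* -0.038 to 0.40, *Osmr* -0.19 to 0.083, *S1pr3* -0.036 to 0.13 and *Aspg* -0.13 to 0.16, in HT + Stroke compared with NT + Stroke, *Gfap* -0.29 to 0.099, *Lcn2* -0.14 to 0.51, *Serpina3n* -0.35 to 0.11, *Cd44* -0.48 to 0.12 and *S1pr3* -0.17 to 0.19, and for the interaction, *Lcn2* -1.99 to 0.012 and *S1pr3* -0.19 to 0.17. At low counts, as for *Lcn2* in sham tissue, the pseudocount sets the size of a fold change.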

Other observations

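Other cell types and regions differed in direction. Of 8 neuronal genes 3 fell and 1 rose in NT + Stroke compared with NT + Sham, and of 8 genes of cortical neurons 6 fell and 1 rose. Of 7 oligodendrocyte genes 4 rose, of 7 ependymal genes 5, of 8 endothelial genes 2, of 3 tested T cell genes 2, of 2 tested neutrophil genes 2 and of 3 tested choroid plexus genes 1, with none lower. The lists of neighbouring regions also varied: of 6 olfactory bulb genes 3 rose and of 8 striatal genes none was called. Their sums ran from 349.7 to 2744 CPM for the striatal genes over all libraries, with 2335 and 2296 CPM in HT + Stroke libraries 1 and 6 and 349.7 CPM in HT + Sham library 6. The olfactory bulb sums in the same 3 libraries were 41.05, 66.9 and 524 CPM. HT + Stroke library 2 held the highest striatal sum, 2744 CPM, and an olfactory bulb sum of 39.5 CPM. The members summed to 1392 CPM in that library, compared with 402 and 384 CPM in HT + Stroke libraries 1 and 6. Between the HT groups, 5 of 7 oligodendrocyte genes and 5 of 7 ependymal genes were called higher with all libraries, where no member was, and none of the 8 neuronal, 8 cortical, 6 tested myeloid, 8 fibroblast and 10 microglial genes was called. How the position of the dissected section bears on the members was not tested.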
